A study of Mus musculus with 7 samples.

Results

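The genes for milk proteins and for the secretory mammary epithelium were read in tumors grown from fibroblasts that lacked or carried nuclear myosin 1 (NM1). They are 10 of the 46603 genes counted: the caseins Csn1s1, Csn1s2a, Csn2 and Csn3, the whey proteins Wap and Lalba, the milk fat globule protein Btn1a1, the transcription factor Elf5, the prolactin receptor Prlr and lactoferrin, Ltf. They were picked by gene symbol, for their difference between the tumors in earlier results of these same libraries. Their differences between the groups are therefore given as a description, without a test.

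The KO cells were mouse embryonic fibroblasts in which NM1 had been deleted with CRISPR/Cas9, and the KO + NM1 cells were those KO cells after lentiviral transduction with NM1 carrying an HA and a V5 tag, neomycin selection and single cloning. All groups used here therefore carry the deletion. Cells were injected under the skin of female nude mice of 16 weeks, and tumors were taken up to 30 days later. By the labels, a KO tumor and a KO + NM1 tumor were each cut into 4 equal pieces, and RNA of 3 KO and 4 KO + NM1 pieces was sequenced. The study's own text also speaks of several tumors and places the injection at the mammary pad, so the number of animals behind the pieces is not settled. Where the pieces come from 1 tumor per group, every error and p-value below measures the spread between pieces of a tumor, not between mice or clones.

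Milk genes are transcribed in the luminal secretory cells of the mammary gland in late pregnancy and lactation. Prolactin binds its receptor, the receptor-bound kinase JAK2 phosphorylates STAT5, and STAT5 enters the nucleus and binds the promoters of caseins and whey proteins, together with ELF5, C/EBPβ, NFI factors and the glucocorticoid receptor. Basal myoepithelial cells around the alveoli contract on oxytocin and expel the milk, and fat cells fill the pad around the ducts.

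The libraries held between 24088309 and 28326568 counts in genes, and 16887 genes passed the filter on low counts. Myo1c, the gene that encodes NM1 and its cytoplasmic isoform, was at 289.0 to 312.5 CPM (counts scaled to library size, with TMM normalisation) in KO pieces and 381.6 to 438.0 CPM in KO + NM1 pieces (log2 difference -0.43 ± 0.13 SE, edgeR quasi-likelihood test, adjusted p = 0.031). A gene-level count adds up both isoforms, the transgene and the host's own Myo1c, so it is only a partial check of the labels. Mitochondrially encoded genes took 1.81% to 2.14% of the counts of the KO pieces and 5.11% to 18.5% of those of the KO + NM1 pieces. KO + NM1 piece 01 stood apart from the other 3 KO + NM1 pieces, and KO piece 02 carried keratinocyte transcripts, as given beside the results they touch. In bulk tissue, fewer cells of a type and less RNA per cell cannot be told apart. The injected cells and the host were both mouse, so for the milk genes too their transcripts cannot be told apart by these counts.

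The promoters are shown because casein promoters are the textbook targets of prolactin signalling. Each window holds 300 bases, from 250 before to 50 after the RefSeq transcription start on GRCm38.p6, read 5′ to 3′ on the strand of the gene. The window of Csn1s1, α-S1-casein, is chr5:87665958-87666257 on the plus strand, that of Csn2, β-casein, is chr5:87699376-87699675 on the minus strand, and that of Csn1s2a, α-S2-casein, is chr5:87774200-87774499 on the plus strand. The windows of the whey proteins are chr15:98482634-98482933 on the minus strand for Lalba, α-lactalbumin, and chr11:6638600-6638899 on the minus strand for Wap, whey acidic protein. Capitals mark each match to TTCNNNGAA, the palindromic STAT motif, which reads the same on both strands.
Csn1s1: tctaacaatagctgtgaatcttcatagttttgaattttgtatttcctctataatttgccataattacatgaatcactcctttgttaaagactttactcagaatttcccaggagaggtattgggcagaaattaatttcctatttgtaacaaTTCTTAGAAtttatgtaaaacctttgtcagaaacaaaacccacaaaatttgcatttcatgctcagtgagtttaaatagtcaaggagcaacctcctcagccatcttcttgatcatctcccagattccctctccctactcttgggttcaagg 
Csn2: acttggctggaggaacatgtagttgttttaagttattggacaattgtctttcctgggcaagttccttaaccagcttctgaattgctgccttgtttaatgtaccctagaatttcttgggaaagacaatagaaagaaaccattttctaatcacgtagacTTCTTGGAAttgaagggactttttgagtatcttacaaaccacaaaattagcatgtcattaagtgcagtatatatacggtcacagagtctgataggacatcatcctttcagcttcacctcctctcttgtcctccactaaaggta 
Csn1s2a: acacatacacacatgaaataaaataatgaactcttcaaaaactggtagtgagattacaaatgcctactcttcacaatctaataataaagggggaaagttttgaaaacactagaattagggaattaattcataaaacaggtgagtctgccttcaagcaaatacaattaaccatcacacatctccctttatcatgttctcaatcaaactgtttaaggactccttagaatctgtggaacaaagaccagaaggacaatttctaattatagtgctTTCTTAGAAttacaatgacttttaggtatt 
Lalba: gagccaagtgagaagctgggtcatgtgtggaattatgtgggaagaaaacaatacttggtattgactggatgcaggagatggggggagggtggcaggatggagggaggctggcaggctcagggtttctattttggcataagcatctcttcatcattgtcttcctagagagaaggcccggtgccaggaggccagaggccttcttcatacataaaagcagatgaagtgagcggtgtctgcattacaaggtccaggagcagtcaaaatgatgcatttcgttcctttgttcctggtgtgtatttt 
Wap: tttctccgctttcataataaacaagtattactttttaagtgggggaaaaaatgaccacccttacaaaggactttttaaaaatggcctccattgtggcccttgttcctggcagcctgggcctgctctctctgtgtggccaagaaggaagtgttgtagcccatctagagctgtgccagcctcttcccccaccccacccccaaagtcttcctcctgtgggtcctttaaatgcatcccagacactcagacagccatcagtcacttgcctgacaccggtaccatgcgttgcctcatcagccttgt

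The 3 calcium-sensitive caseins each held 1 match to the motif. In Csn1s1, TTCTTAGAA lay 100 to 92 bases before the start, and in Csn2, TTCTTGGAA lay 93 to 85 bases before it. In Csn1s2a, the letters TTCTTAGAA lay 20 to 28 bases after the RefSeq start. The GENCODE start of Csn1s2a lies 117 bases downstream of the RefSeq start, which puts that match 97 to 89 bases before the GENCODE start. The GENCODE start of Csn2 lies 205 bases upstream of the RefSeq start, and from there the Csn2 match lies 112 to 120 bases after the start. The windows of Lalba and Wap held no match. RefSeq windows were at hand for 8 of the 10 genes, without Csn3 and Btn1a1, and gave 11 windows in all. The motif was in 4 of the 11, the fourth being 1 of 3 Prlr windows, with TTCTAGGAA 110 to 102 bases before that start, and in 8.29% of 32817 windows of the same length over all genes. The NFI letters TTGGC, searched on both strands, were in 4 of the 11 windows and in 46.7% of all windows.

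Transcripts of 9 of the 10 genes were measurable, and 8 of them lay lower in every KO piece than in any KO + NM1 piece. The 8 were Csn1s1, Csn1s2a, Csn3, Lalba, Btn1a1, Elf5, Prlr and Ltf. The exceptions were Csn2, whose pieces overlapped, and Wap, which was hardly detected in either group. Over all tested genes, 26.4% lay lower and 30.5% higher in every KO piece without overlap, and since the genes were chosen on this contrast nothing is read from that comparison. The median log2 difference of the 9 genes that passed the filter was -8.01, with a range from -11.14 to -2.35, and that over all tested genes was 0.08. These log2 differences, KO minus KO + NM1, are between group means of log2 CPM with a prior count of 2.

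**Figure D1:**
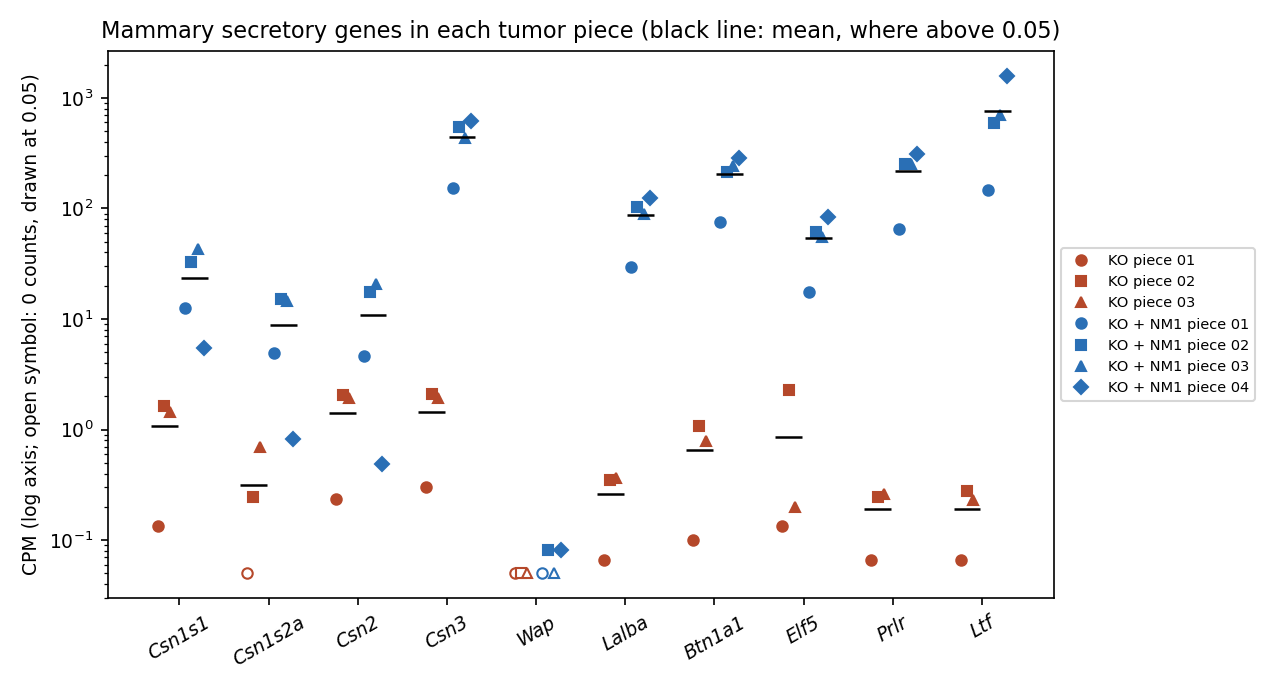
CPM on a log axis of the 10 mammary secretory genes, with 1 symbol for each of the 3 KO pieces (red) and 4 KO + NM1 pieces (blue), black lines at group means above 0.05, and open symbols for pieces at 0 counts. The KO and KO + NM1 symbols are apart for 8 genes, and KO + NM1 piece 04 (diamond) lies low for Csn1s1, Csn1s2a and Csn2 and is the highest of the 4 for Csn3, Lalba, Btn1a1, Elf5, Prlr and Ltf.

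The casein that led the KO + NM1 pieces was Csn3 (chr5:87925579-87932665, plus strand), κ-casein, which caps the casein micelle and keeps it in solution. Its level was 0.300, 2.09 and 1.95 CPM in KO pieces 01 to 03 and 154, 547, 434 and 625 CPM in KO + NM1 pieces 01 to 04. The lowest KO + NM1 piece lay far above the highest KO piece. Group means were 1.45 ± 0.994 CPM (SD, n = 3) and 440.1 ± 206 CPM (SD, n = 4), a ratio of 305, and the log2 difference was -8.37.

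The calcium-sensitive caseins, which form the body of the micelle with calcium phosphate, were at lower levels than Csn3 in the KO + NM1 pieces. Csn1s1 (chr5:87666208-87682578) was at 0.133, 1.63 and 1.45 CPM in the KO pieces and 12.7, 32.95, 42.7 and 5.47 CPM in the KO + NM1 pieces. Csn1s2a (chr5:87774567-87788797) was at 0, 0.243 and 0.693 CPM in KO pieces and at 4.96, 15.1, 14.7 and 0.822 CPM in KO + NM1 pieces, the last resting on 20 counts. For both genes the groups were apart, for Csn1s2a only narrowly, because KO + NM1 piece 04 came close to KO piece 03. The KO + NM1 means were 21.8 times the KO mean for Csn1s1, with a log2 difference of -4.44, and 28.5 times for Csn1s2a, with a log2 difference of -4.42.

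Csn2 (chr5:87692624-87699630, minus strand), in the mouse among the most abundant casein transcripts of lactation, was the casein whose groups overlapped. Its CPM were 0.233, 2.05 and 1.95 in the KO pieces and 4.67, 17.45, 20.6 and 0.493 in the KO + NM1 pieces. KO + NM1 piece 04, with 12 Csn2 counts, lay under KO pieces 02 and 03, with 59 counts each. The log2 difference was -2.35 over all pieces, -3.45 without KO + NM1 piece 04, -1.72 without KO + NM1 piece 03 and -1.43 without KO piece 01.

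Of the whey proteins, Lalba (chr15:98480400-98482721, minus strand), the regulatory subunit of lactose synthase, followed Csn3. It stood at 0.0667, 0.348 and 0.363 CPM in KO pieces and at 29.9, 103, 88.6 and 125 CPM in KO + NM1 pieces. These are 2, 10 and 11 counts against 819 to 3050 counts. The ratio of means was 335, with a log2 difference of -8.01. Wap (chr11:6635482-6638637, minus strand) had 0 counts in each KO piece and 0, 2, 0 and 2 counts in the KO + NM1 pieces, under the limit of 3 counts that a count of 0 allows, which was 0.0991 to 0.148 CPM across libraries. It did not pass the filter, and a difference in Wap was not detectable at this depth.

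Btn1a1 (chr13:23456992-23465901, minus strand), butyrophilin, is the membrane protein that binds lipid droplets during milk fat secretion. It was at 0.100, 1.08 and 0.793 CPM in the KO pieces and 75.9, 215, 242 and 286 CPM in the KO + NM1 pieces. The ratio of means was 312 and the log2 difference -8.36.

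The regulators among the genes showed the same order of pieces as Csn3 within KO + NM1, with piece 01 lowest and piece 04 highest for Prlr and Elf5. Prlr (chr15:10177238-10349180, plus strand) was at 0.0667, 0.243 and 0.264 CPM in KO pieces, from 2, 7 and 8 counts, and at 65.3, 253, 251 and 311 CPM in KO + NM1 pieces. The log2 difference was -9.57. Its exons overlap those of Gm21973, annotated on the same strand, and long and short receptor isoforms are not separated by the counts. Elf5 (chr2:103411688-103450989, plus strand), the ETS factor that directs the alveolar luminal fate, was at 0.133, 2.26 and 0.198 CPM in KO pieces and 17.7, 61.6, 55.7 and 83.1 CPM in KO + NM1 pieces, a log2 difference of -6.54. Of the 75 Elf5 counts in the KO pieces together, 65 came from piece 02, whose keratinocyte genes summed to 924 CPM, against 5.38 and 10.9 CPM in the other KO pieces. The part of those cells in its Elf5 level was not tested.

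Ltf (chr9:111019271-111042767, plus strand), an iron-binding protein of milk, other secretions and neutrophil granules, differed most. Its CPM were 0.0667, 0.278 and 0.231 in the KO pieces and 147, 598, 705 and 1591 in the KO + NM1 pieces, with 2 to 8 counts against 4041 to 38693 counts. The log2 difference was -11.14. Neutrophil markers, 14 listed, did not follow a single pattern beside it. Their summed CPM was 243.6, 137 and 131 in KO pieces and 133, 23.9, 23.8 and 35.5 in KO + NM1 pieces, mostly from Mmp9 and Csf3r. Without these genes the sum was 1.53, 7.02 and 2.68 CPM in KO pieces and 86.8, 7.73, 7.96 and 4.44 CPM in KO + NM1 pieces. Of the granule genes, Camp and Ngp had 77 and 212 counts in KO + NM1 piece 01 and at most 2 in pieces 02 to 04, while Elane had 0, 1 and 1 counts in KO pieces and 12, 38, 17 and 17 in KO + NM1 pieces. The part of neutrophils in the Ltf level was not tested.

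Single libraries moved several of these log2 differences by over 1.5-fold. Without KO piece 01, the piece with the fewest counts of these genes, they came to -3.46 for Csn1s1, -3.51 for Csn1s2a, -7.54 for Csn3, -7.52 for Btn1a1 and -5.89 for Elf5. Csn1s2a came to -5.16 without KO piece 03 and -5.31 without KO + NM1 piece 04, Elf5 to -7.63 without KO piece 02, and Ltf to -11.78 without KO + NM1 piece 01. Those of Lalba and Prlr stayed within that bound under each omission.

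Compared per length of transcript (CPM per kilobase of the principal annotated mRNA), the KO + NM1 pieces were led by Ltf at 277 ± 220 (SD, n = 4) and Csn3 at 276 ± 129. Lalba followed at 112 ± 53.0, Btn1a1 at 59.8 ± 26.5, Prlr at 22.2 ± 10.8 and Elf5 at 21.5 ± 10.8. The 3 calcium-sensitive caseins came last but for Wap, with Csn1s1 at 16.6 ± 12.3, Csn1s2a at 9.66 ± 7.75 and Csn2 at 8.13 ± 7.32. The order of Csn3, Lalba, Btn1a1 and Prlr held in all 4 pieces, as did that of Csn1s1, Csn1s2a and Csn2. The neighbours Ltf and Csn3, Prlr and Elf5, and Elf5 and Csn1s1 changed places between pieces and are not told apart. With the length of all annotated exons in place of the principal mRNA, Csn3 came to 106.0 CPM per kilobase and Lalba, at 112, passed it. In the KO pieces the order per kilobase was another, with Csn2 at 1.06, Csn3 at 0.905 and Csn1s1 at 0.761 ahead of the rest, from few counts. Csn2 lay above Csn3 in 2 of the 3 KO pieces, and with the length of all exons the KO order was led by Csn3 at 0.348 and Lalba at 0.336, before Csn2 at 0.204 and Csn1s1 at 0.172.

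The caseins differed between the groups in proportion as well as in level. Csn3 made up 32.2% to 45.0% of the counts of the 4 caseins in KO pieces and 84.8% to 98.9% in KO + NM1 pieces. Csn2 made up 32.2% to 35.0% in KO pieces and 0.0781% to 4.02% in KO + NM1 pieces. Csn1s1 took 20.0% to 27.2% against 0.866% to 8.33%. These shares are not tested, since all rest on the values that chose the genes, and those of KO piece 01 rest on 20 casein counts. Csn1s2a took 0% to 11.5% against 0.130% to 2.86%, which overlap. For Csn2 as a share of Csn2 and Csn3 counts, the 95% Wilson intervals, which cover counting error only and not the spread between pieces, were 23.1% to 66.8%, 40.8% to 58.4% and 41.1% to 58.9% in the KO pieces. The 4 KO + NM1 intervals lay between 0.0451% and 4.97%.

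The proportion of Lalba to Csn3 overlapped between the groups. For each 100 Csn3 counts there were 22.2, 16.7 and 18.6 Lalba counts in KO pieces and 19.4, 18.9, 20.4 and 20.1 in KO + NM1 pieces. The KO values rest on 2, 10 and 11 Lalba counts, and the Wilson interval of Lalba as a share of Lalba and Csn3 counts was 5.14% to 47.7% in KO piece 01, too wide to show whether the proportion differed. Csn2 stood at 77.8, 98.3 and 100 counts for each 100 of Csn3 in KO pieces and at 3.03, 3.19, 4.74 and 0.0790 in KO + NM1 pieces. For Csn1s2a the values overlapped, at 0, 11.7 and 35.6 in KO pieces and 3.22, 2.76, 3.38 and 0.132 in KO + NM1 pieces.

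**Figure D2:**
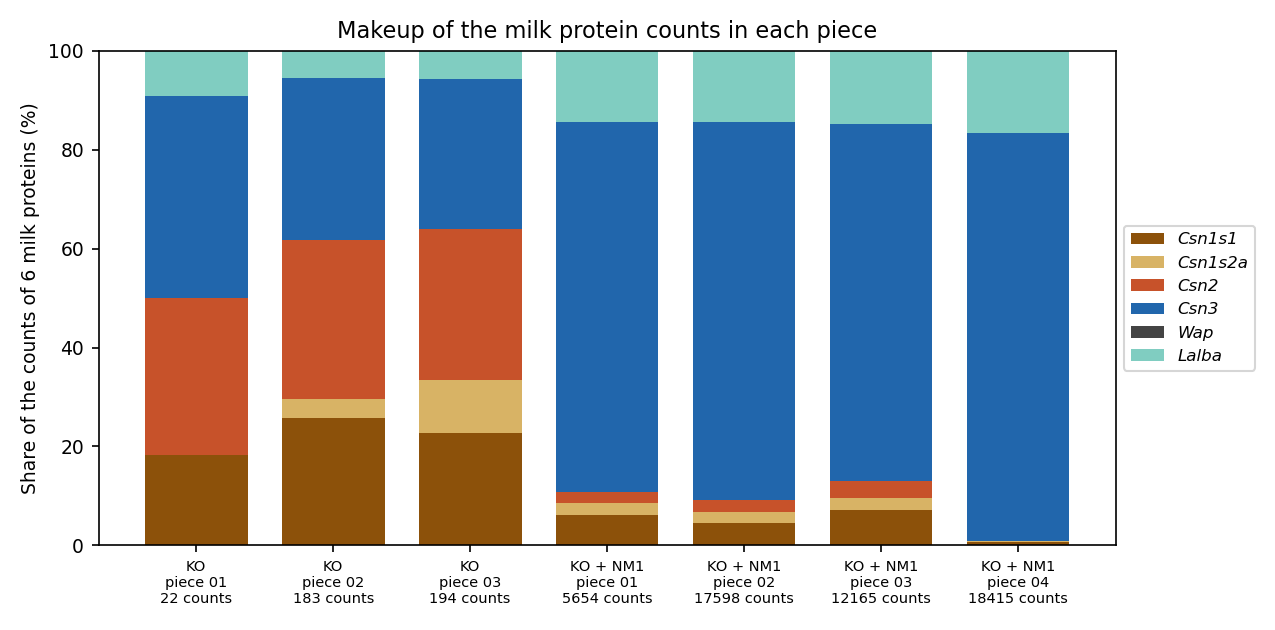
Share in percent of the counts of the 6 milk protein genes taken by each gene, with 1 stacked bar for each tumor piece and the number of counts under it. The bars of the KO pieces, from 22 to 194 counts, hold Csn2 and Csn1s1 as large blocks, and those of the KO + NM1 pieces, from 5654 to 18415 counts, are mostly Csn3 and Lalba, in piece 04 nearly alone.

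Among the KO + NM1 pieces the genes fell apart into those high and those low in piece 04. Against the mean of pieces 02 and 03, piece 04 held 1.27 times the Csn3 CPM, 1.31 times that of Lalba, 1.25 times that of Btn1a1, 1.24 times that of Prlr, 1.42 times that of Elf5 and 2.44 times that of Ltf. The calcium-sensitive caseins went the other way, at 0.145 times for Csn1s1, 0.0552 times for Csn1s2a and 0.0259 times for Csn2. From the lowest to the highest KO + NM1 piece, Csn2 ranged over 41.8-fold and Csn1s2a over 18.4-fold, Ltf over 10.8-fold and Csn1s1 over 7.81-fold, compared with 3.76-fold to 4.77-fold for Csn3, Lalba, Btn1a1, Elf5 and Prlr. Over the 7 pieces, Pearson's r of log2 CPM was 0.998 between Csn3 and Lalba and 0.590 between Csn3 and Csn2, values that include the difference between the groups and are given as a description.

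The caseins lie together on chromosome 5, over 266.5 kilobases from the start of Csn1s1 to the end of Csn3. Within 250 kilobases on either side of that span, the annotation has 17 other protein-coding genes, among them the salivary proteins that neighbour the caseins in mammals. None of the 17 passed the filter, 11 had 0 counts in every piece, and 16 had at most 3 counts in any piece. The exception was Smr2, a submaxillary gland gene, with at most 5 counts. Csn1s2b, the remaining casein of the mouse cluster, had 0 counts in KO pieces and 0, 2, 1 and 1 in KO + NM1 pieces.

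**Figure D3:**
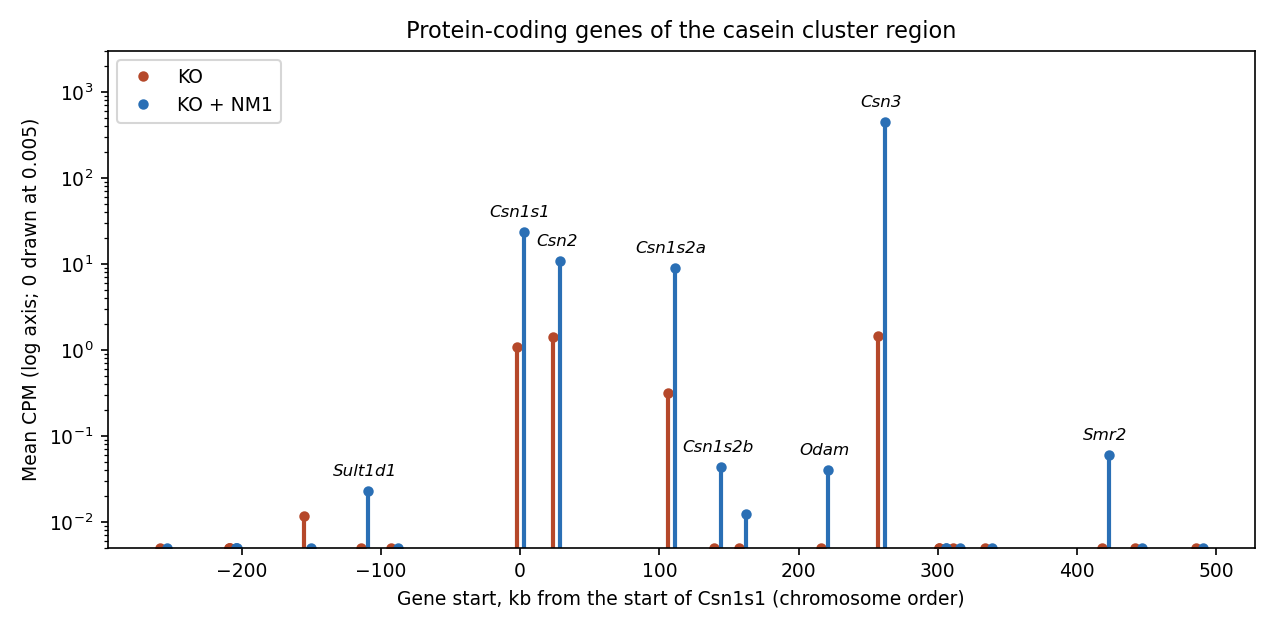
Group mean CPM on a log axis of the 21 protein-coding genes in and around the casein cluster, placed by gene start in kilobases from the start of Csn1s1, red for KO and blue for KO + NM1, with genes at 0 drawn at the foot of the axis. Csn1s1, Csn2, Csn1s2a and Csn3 rise from neighbours that all stay under 0.1 CPM.

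The rest of the secretory program was followed in 24 further genes of milk and milk fat secretion, of which 20 were tested. The edgeR quasi-likelihood test, with p-values adjusted over all 16887 genes and a change of at least 2-fold, called 14 lower in KO and 0 higher, with a median log2 fold change of -3.04. Some of the 14 passed the filter through the KO + NM1 pieces alone, so that only a call of lower was open to them. Among these were Pigr, with 0, 1 and 0 counts in KO pieces, and Cel, with 3, 3 and 1. With at least 10 counts required in every library, 7 were called lower. Csn1s2b, Lpo, Olah and Car6 were not tested. Car6 had 9, 80 and 2 counts in KO pieces and 0, 7, 0 and 1 in KO + NM1 pieces. Over all tested genes 20.3% were called lower and 17.1% higher, together 37.3%. Wfdc18, a whey acidic protein relative, was at 0.249 CPM in KO and 44.2 ± 30.7 CPM in KO + NM1 (log2 fold change -7.45 ± 0.81 SE, adjusted p = 0.00132). Folr1, the folate receptor from which milk folate-binding protein derives, was lower in KO, with a log2 fold change of -6.76 ± 0.93 SE (edgeR, adjusted p = 0.00169). It had 1, 4 and 0 counts in KO pieces and 68, 202, 154 and 203 in KO + NM1 pieces, and passed the filter through the latter alone. Of the genes that coat or fill the milk fat globule, Mfge8, lactadherin, was at 179.8 ± 14.2 CPM in KO and 1060 ± 397 CPM in KO + NM1 (log2 fold change -2.56 ± 0.30 SE, edgeR, adjusted p = 0.00122). Cidea, which fuses lipid droplets, and Cd36, a fatty acid transporter, were called lower in KO, with log2 fold changes of -8.34 ± 1.29 SE and -5.55 ± 0.60 SE (edgeR, adjusted p = 0.00756 and 0.00146). Cidea had 2, 79 and 2 counts in the KO pieces.

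Cidea and Cd36 are also genes of fat cells. The 10 white adipocyte markers were all called lower in KO, beside 20.3% of all tested genes called lower and 17.1% higher. The largest log2 fold changes were in Lep, leptin (-9.26), Plin1 (-9.10) and Retn (-8.65), and the highest levels in Fabp4 and Cfd. Lep had 0, 42 and 3 counts in KO pieces. The summed CPM of the 10 markers was 118 to 310.1 in KO pieces and 4770 to 35000 in KO + NM1 pieces. The part of fat cells in the milk fat genes was not tested. Glycam1, a mucin-like milk protein, was in effect a product of 1 piece, with 70837 counts in KO + NM1 piece 01 and 17, 21 and 1 counts in the others, against 3, 0 and 1 counts in KO pieces. That piece had the lowest Csn3, Lalba, Btn1a1, Elf5, Prlr and Ltf of the KO + NM1 pieces. Tnfsf11 and Cxcr2 had 797 and 994 counts in it, and at most 2 and 12 in the other KO + NM1 pieces. Which cells gave the Glycam1 counts was not tested. Glycam1 was not called (edgeR, adjusted p = 0.0552), but was with the piece number as a block (adjusted p = 0.0156), with voom and without KO + NM1 piece 04 (adjusted p = 0.0313 and 0.0427). Xdh, the enzyme that works with butyrophilin in globule release, was not called either (log2 fold change -1.19, edgeR, adjusted p = 0.0599), but was called lower in KO in 5 of 16 alternatives, with adjusted p from 0.000286 with voom to 0.0495 with RLE scaling.

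In the pathway from prolactin to the milk genes, of 28 genes listed, 26 were tested, and 8 were called lower in KO, 4 higher and 14 neither, with a median log2 fold change of -0.71. Over all tested genes, the shares called lower and higher were 20.3% and 17.1%. No set test was run on this list. Prl itself, the pituitary hormone, had 0 counts in every piece. The kinase Jak2 was at 70.1 ± 5.25 CPM in KO and 57.5 ± 20.2 CPM in KO + NM1 and was not called (edgeR, adjusted p = 0.382). Stat5a was lower in KO, at 34.9 ± 3.82 against 116.0 ± 22.5 CPM (log2 fold change -1.73 ± 0.19 SE, edgeR, adjusted p = 0.000857), while its close paralog Stat5b was at 104.4 ± 12.3 against 105.9 ± 8.19 CPM (log2 fold change -0.02 ± 0.14 SE, edgeR, adjusted p = 0.909).

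The feedback inhibitors of the pathway moved in both directions. Cish and Socs2, STAT5 target genes, were lower in KO, with log2 fold changes of -1.12 ± 0.21 SE and -2.34 ± 0.49 SE (edgeR, adjusted p = 0.00495 and 0.00982). With library-size scaling Cish came to -0.93, short of 2-fold. Socs1 and Socs3 were higher in KO, with log2 fold changes of 2.25 ± 0.59 SE and 1.39 ± 0.19 SE (edgeR, adjusted p = 0.018 and 0.00144). The Socs1 call was lost without any 1 of the KO pieces, with adjusted p of 0.0525, 0.0531 and 0.0599.

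Among receptors and partner factors, Pgr, the progesterone receptor, was at 0.0787 CPM in KO and 28.4 ± 14.7 CPM in KO + NM1 (log2 fold change -8.41 ± 0.98 SE, edgeR, adjusted p = 0.00115). The estrogen receptor Esr1 and the growth hormone receptor Ghr, which also signals through STAT5, were lower in KO, with log2 fold changes of -2.91 ± 0.48 SE and -3.66 ± 0.60 SE (edgeR, adjusted p = 0.00409 and 0.00479). Of the NFI factors, Nfib was lower in KO (log2 fold change -2.75 ± 0.33 SE, edgeR, adjusted p = 0.00129) and Nfic, at 342.5 ± 25.4 against 263.1 ± 74.9 CPM, was not called (adjusted p = 0.26). Nr3c1, the glucocorticoid receptor, fell short of 2-fold (log2 fold change -0.95 ± 0.15 SE, edgeR, adjusted p = 0.00288) and was called lower in KO in 7 of 16 alternatives. Cebpb was not called (log2 fold change -1.12 ± 0.45 SE, edgeR, adjusted p = 0.0794) but was called lower in 3 of 16. Erbb4, a neuregulin receptor of the lactating gland, was at 0.0111 CPM in KO, from at most 3 counts in a piece, and at 1.11 ± 0.717 CPM in KO + NM1 (edgeR, adjusted p = 0.00317). Of 3 listed ErbB ligands, 2 were higher in KO and 1 lower. Nrg1 was higher in KO with a log2 fold change of 4.47 ± 0.76 SE (edgeR, adjusted p = 0.00357) and Egf with 2.48 ± 0.57 SE (adjusted p = 0.0107), the latter not called with the piece number as a block (adjusted p = 0.0982). Areg, amphiregulin, of the luminal list, was lower in KO (log2 fold change -5.44 ± 0.98 SE, edgeR, adjusted p = 0.00816).

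**Figure D4:**
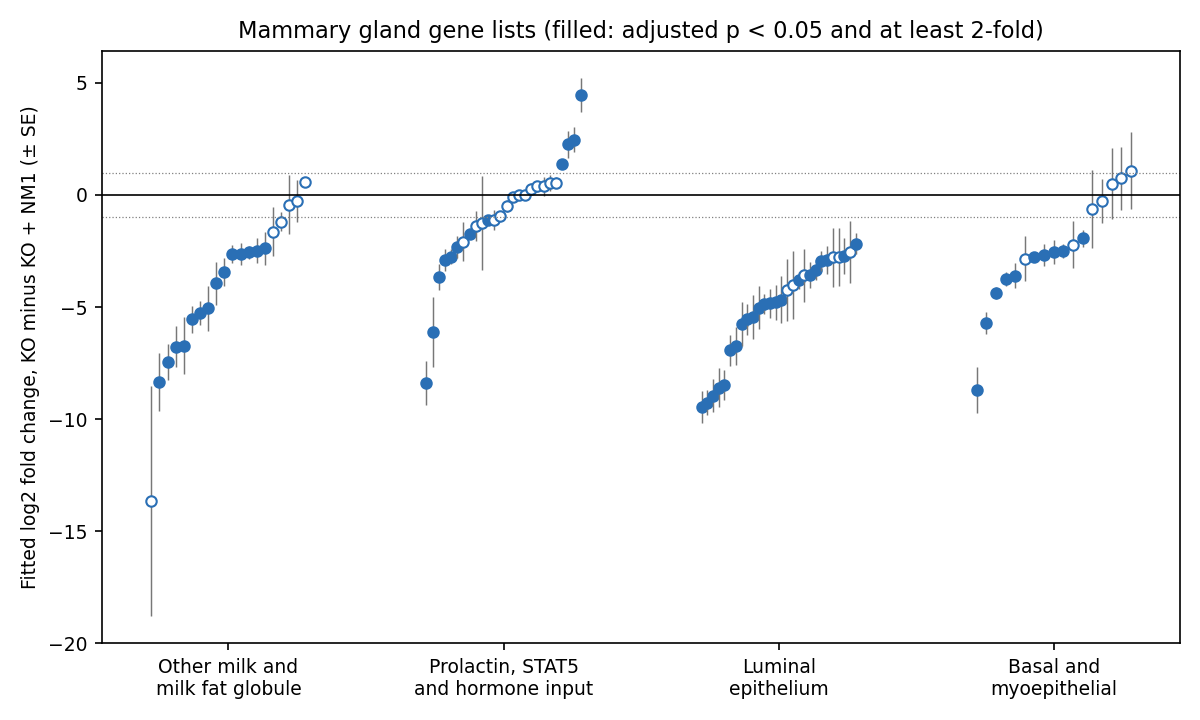
Fitted log2 fold change, KO minus KO + NM1, with its SE as a bar, of each tested gene of 4 mammary lists, filled where adjusted p is under 0.05 with at least 2-fold change. Filled symbols lie under 0 in the milk, luminal and basal lists (14, 22 and 10 genes) and on both sides in the list of prolactin and hormone signalling (8 lower, 4 higher).

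Markers of the luminal epithelium, the cells in which milk genes are transcribed in the gland, also differed between the tumors. Of 28 luminal genes, all tested, 22 were called lower in KO, 0 higher and 6 neither, with a median log2 fold change of -4.73. The shares over all tested genes were 20.3% lower and 17.1% higher. Krt19, a keratin of luminal cells, was at 0.508 CPM in KO and 315 ± 157 CPM in KO + NM1 (log2 fold change -9.27 ± 0.56 SE, edgeR, adjusted p = 0.000375). Cited1, a co-activator of the ductal luminal cells, and Krt7 were lower in KO, with log2 fold changes of -9.46 ± 0.71 SE and -8.95 ± 0.74 SE (edgeR, adjusted p = 0.0004 and 0.0005). Cited1 had 3, 7 and 2 counts in KO pieces and Krt7 had 2, 3 and 7. Both passed the filter through the KO + NM1 pieces alone, and their folds rest on these few KO counts. With at least 10 counts required in every library, 12 luminal genes were called lower. Krt18 was at 21.8 ± 20.7 CPM in KO and 263.0 ± 129 CPM in KO + NM1 and was not called (edgeR, adjusted p = 0.0627).

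Of the basal and myoepithelial list, 17 of 18 genes were tested and 10 were called lower in KO, with a median log2 fold change of -2.54. Of all tested genes, 20.3% were called lower. Oxtr, the receptor of milk ejection, was at 0.240 CPM in KO and 101.1 ± 67.7 CPM in KO + NM1 (log2 fold change -8.70 ± 1.02 SE, edgeR, adjusted p = 0.00167). The smooth muscle genes Cnn1, Myh11 and Acta2 were lower in KO, with log2 fold changes of -5.72 ± 0.49 SE, -4.38 ± 0.28 SE and -3.76 ± 0.31 SE (edgeR, adjusted p = 0.00068, 0.000302 and 0.000528). In these 3 genes, myoepithelial cells were not told apart from other smooth muscle cells. The basal keratins Krt5, Krt14, Krt15 and Krt17, which skin shares, were not called, and Krt5 had 319, 7180 and 0 counts in KO pieces and 927, 3451, 1779 and 6677 counts in KO + NM1 pieces. Trp63, of the same list, was not called either (log2 fold change -0.26, edgeR, adjusted p = 0.844).

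Glands of the skin and of the mouth express some of the same genes, and their markers were read beside them. Of 14 salivary and sebaceous markers, 4 had 0 counts in every piece (Smgc, Prol1, Smr3a and Bpifa2), 6 were tested and 2 were called lower in KO, Amy1, an amylase (log2 fold change -5.74 ± 0.63 SE, edgeR, adjusted p = 0.00159), and Mogat1, at 0.0116 against 13.0 ± 7.74 CPM. Elovl3, a sebaceous elongase, was at 3.05 ± 4.21 CPM in KO and 44.9 ± 66.0 CPM in KO + NM1 and was not called (edgeR, adjusted p = 0.0842). It was called lower in KO in 4 of 15 alternatives. The list had a summed CPM of 4.83 to 17.3 in KO pieces and 59.3 to 437 in KO + NM1 pieces. The KO + NM1 sums came mostly from Amy1, at 41.9, 285, 271 and 212 CPM, and Elovl3, at 13.9, 15.7, 143.8 and 6.33 CPM. Elovl3 was highest in piece 03, as was Cidea at 793 CPM. Amy1 was lowest in piece 01, as was the adipocyte marker Adipoq at 235 CPM. The other tested markers, Awat2, Scd3 and Mc5r, were not called. The part of fat cells in the Amy1, Mogat1 and Elovl3 levels was not tested. Of 12 keratinocyte markers 5 were tested, with 1 called higher in KO, Lor (edgeR, adjusted p = 0.019), a call that was lost without KO piece 02 (adjusted p = 0.0968), without KO + NM1 piece 02 or 04 (0.0542 and 0.0558), with the piece number as a block (0.175) and with voom (0.332), while DESeq2 gave no adjusted p. The cornified-layer keratins Krt1 and Krt10 had 7371 and 7308 counts in KO piece 02 and at most 18 and 234 in any other piece. Of the 8 neutrophil markers tested, 2 were called higher in KO, Mmp9 and Csf3r (edgeR, adjusted p = 0.00311 and 0.017), and 1 lower, Elane, with at most 1 count in a KO piece and 12 to 38 counts in KO + NM1 pieces. The Csf3r call was lost without any 1 of the KO pieces (edgeR, adjusted p = 0.0511 to 0.0612). Beside the calls in these lists, 20.3% of all tested genes were called lower and 17.1% higher.

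Because the luminal genes differed too, the secretory genes were also set against them. The summed luminal list was at 52.7, 233 and 99.8 CPM in KO pieces and 1111, 2891, 2522 and 3726 CPM in KO + NM1 pieces. For each 1000 counts of that list, Csn3 had 5.69 to 19.5 counts in KO pieces and 139 to 189 in KO + NM1 pieces. Lalba had 1.27 to 3.64 against 26.9 to 35.7, Btn1a1 1.90 to 7.94 against 68.3 to 96.0, and Elf5 1.99 to 9.68 against 15.9 to 22.3. For Prlr the ranges were 1.04 to 2.65 and 58.8 to 99.5, and for Ltf 1.19 to 2.32 and 133 to 427. These 6 genes stayed apart between the groups on the scale of the whole list.

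The calcium-sensitive caseins did not. Csn1s1 had 2.53 to 14.6 counts for each 1000 luminal counts in KO pieces and 1.47 to 16.9 in KO + NM1 pieces, and Csn1s2a had 0 to 6.95 against 0.221 to 5.82. For Csn2 the ranges were 4.43 to 19.5 and 0.132 to 8.17, with the higher mean in KO, 10.9 against 4.64. A ratio to the luminal list shows unequal change within a library and not the level per luminal cell, and it rests on genes that differed in the same contrast. It also depends on which listed genes carry the sum. In KO piece 01, Gata3, Cd24a and Kit gave 11.3, 10.1 and 9.23 of 52.7 CPM, and Krt19 gave 0.567. Against Krt19 alone, Csn3 was not apart between the groups. Csn3 had 9, 60 and 59 counts and Krt19 17, 18 and 10 in the KO pieces. In the KO + NM1 pieces Csn3 had 4224, 13451, 8793 and 15198 counts and Krt19 2510, 9443, 6708 and 11006.

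**Figure D5:**
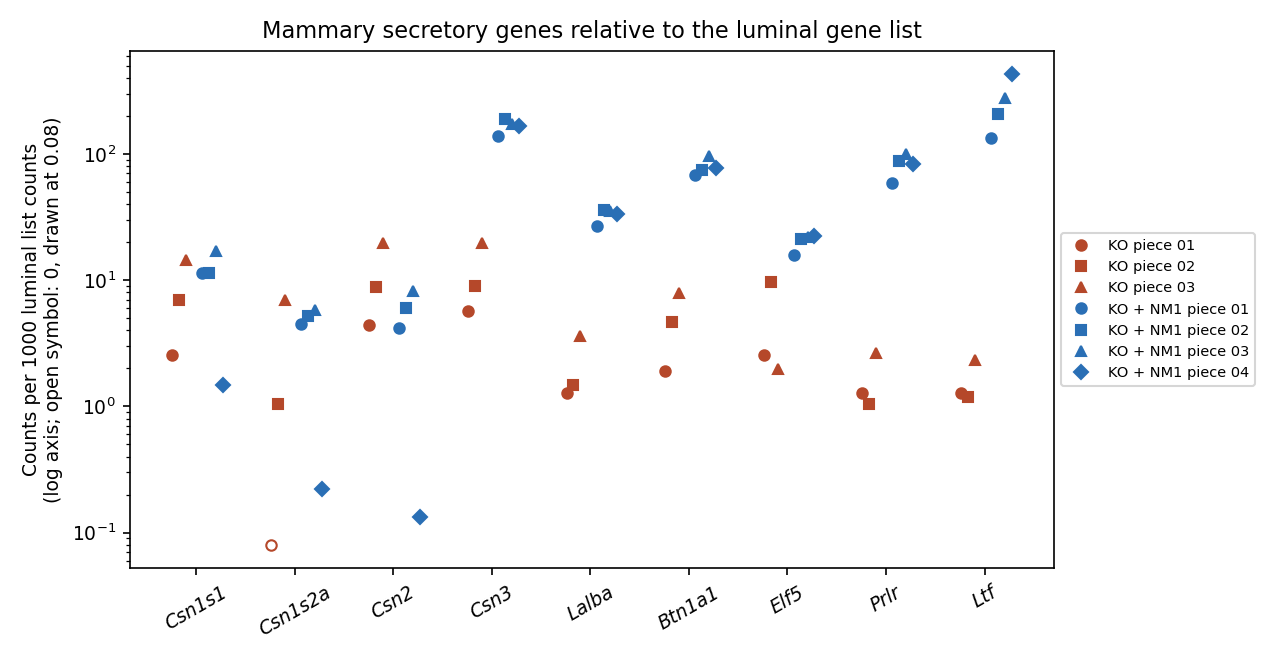
Counts of 9 secretory genes for each 1000 counts of the 28-gene luminal list, on a log axis, with 1 symbol for each KO piece (red) and KO + NM1 piece (blue) and an open symbol at 0. Red and blue overlap for Csn1s1, Csn1s2a and Csn2 and stay apart for Csn3, Lalba, Btn1a1, Elf5, Prlr and Ltf.

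The genes whose pattern was most like that of the 6 milk proteins were sought among 13809 protein-coding genes with a mean of at least 1 CPM, by Pearson's r of log2 CPM with the summed milk protein counts over the 7 pieces. The closest were Cul9 at 0.999, Nr3c2, the mineralocorticoid receptor, at 0.998, Capsl and Prr16 at 0.997, Hbp1 at 0.996, and Lin52, Btbd6, Eid2, Chrdl1 and Lcn2 at 0.995. Lcn2, an iron-siderophore carrier, was the 1 gene of these 10 that stood in a list here, the luminal list. As the groups are far apart in the milk counts, a high r is common, and 7.92% of the genes compared reached 0.95.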

How the data were processed

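The RNA-seq libraries of 3 KO and 4 KO + NM1 tumor pieces were used. The authors deposited raw counts per Ensembl gene, with 1 table for each library. Per the submitters' processing notes, the tools were Trimmomatic 0.36, FastQC, HISAT2 2.0.4, SAMtools 0.1.19 and HTSeq, and the build was GRCm38 (mm10). The annotation release and the strand option are not given in the sources used here. Gene symbols were taken from GENCODE M21, with 46005 of 46603 IDs matched. Replicate libraries differed by far more than sampling noise (chi-square per degree of freedom 35.2 to 687 over genes with at least 20 counts).

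Counts were filtered with filterByExpr (minimum count 10), TMM normalised and fitted with the edgeR 4.0.16 quasi-likelihood test on all 7 libraries in R 4.3.3, as KO minus KO + NM1. P-values were adjusted over 16887 genes (Benjamini-Hochberg). The biological coefficient of variation was 46.7%. Genes were called at an adjusted p under 0.05 with at least 2-fold change (log2 of 1). The script was tested on simulated data. Values of each library are CPM at TMM library sizes. Alternatives were RLE, upper quartile and library-size scaling, mitochondrial genes left out of the library size, other filters, DESeq2 1.42.0, limma 3.58.1 voom, the piece number as a block, a prior count of 0.5, and each library left out. The change in scaling moved the median log2 fold change over all genes from 0.00 to between -0.16 and 0.17.

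The 10 genes and the marker lists were chosen with earlier results of these data known. Named beside them are, in each list, the 3 genes with the largest fold change among those called without overlap, its 2 most abundant genes, and genes with a role in the prolactin pathway. Glycam1, Xdh, Areg, Camp, Ngp, the basal keratins and Trp63 were named after their values were seen. So were Tnfsf11, Cxcr2, Gata3, Cd24a, Kit, Adipoq, Awat2, Scd3, Mc5r, Pthlh, Slc30a4, Pigr, Cel, Lpo, Olah and Car6. Mogat1, Elane and Erbb4, at 3 counts or fewer in each KO piece, are given without a fold. Promoter windows are from RefSeq on GRCm38.p6. Lengths and gene coordinates are those of GENCODE M21 on GRCm38.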

Additional observations from a re-analysis of the deposited data

Results flagged for a closer look

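For 17 values the KO + NM1 pieces were checked for a piece far from the other 3 (the gap to the nearest piece over the whole range, set against Dixon's critical value for 4 samples), which chance exceeds for about 1 in 20 groups. It was exceeded for 2 values, both in piece 01. Prlr on the log2 CPM scale lay below the other pieces with a ratio of 0.861, at 65.3 CPM against 251 to 311 CPM. The summed level of the prolactin pathway list lay below them with a ratio of 0.976, at 1943 CPM against 2859 to 2886 CPM. The gap in the sum came mostly from Ghr, at 101 against 676 to 774 CPM, and Nfib, at 192 against 418 to 518 CPM. Other listed genes lay higher in piece 01, among them Jak2 at 87.5 against 44.4 to 50.3 CPM and Socs2 at 68.3 against 16.8 to 24.9 CPM. The low sum is therefore not a fall of the whole list.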

How the results depend on the processing

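Counts of genes called higher and lower in KO were 2882 and 3424 over all genes. They were 2607 and 3658 with RLE, 2461 and 3826 with upper-quartile and 3401 and 2977 with library-size scaling, 2747 and 3946 with DESeq2 and 4096 and 3991 with voom. With the adjusted p alone, 4345 genes were higher. Leaving out each library in turn gave 2174 to 3603 higher and 2811 to 4172 lower. The median log2 difference of the secretory genes then ran from -8.46 to -7.47. Of the milk list, 11 to 15 genes were lower and 0 to 1 higher, of the luminal list 21 to 27 and 0, of the basal list 10 to 12 and 0, and of the prolactin list 8 to 12 and 3 to 5. With at least 10 counts required in every library, 7 milk and 12 luminal genes were called lower, since that filter tests fewer genes. In the milk list Pthlh was called higher with voom and without KO + NM1 piece 01. Slc30a4 was higher with the adjusted p alone (log2 fold change 0.58, edgeR, adjusted p = 0.0118). No log2 difference of a secretory gene changed sign. Of 74 listed genes called, 64 kept their call in every alternative that tested them and 0 changed sign. Piece numbers did not pair the pieces: same-numbered pieces' deviations from their group means correlated at 0.0802, 0.103 and -0.0165. With the number as a block, 2437 genes were higher and 2493 lower. Wap at 0 to 2 counts, and the KO milk protein total of 22 to 194 counts, are limited by depth.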
